A study of Orbicella faveolata with 48 samples.

Results

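Inshore fragments of the mountainous star coral Orbicella faveolata that had spent 31 days at 32 °C were compared with inshore fragments held at 30 °C for the same time. The libraries were chosen by their labels (inshore, 31 days, heated or control), which gave 9 heated and 9 control libraries, 18 of the 48 in the series. The series, from the Florida Keys, asks how corals of inshore and of offshore reef sites differ in heat tolerance. Its other 30 libraries were inshore fragments of 5 days (9 heated to 33 °C and 9 controls) and offshore fragments of both times (3 heated and 3 controls at each). Water of the heated tanks was brought up gradually over a week after acclimation, and the controls stayed at 30 °C. Each library came from coral tissue, which holds the animal and its algae, and carried a colony tag and a genotype label.

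The genotype labels were In1 (tags A2, A4 and A5), In2 (B2 and B3), In3 (D4, D5 and D6 among the controls, and D3, D4 and D5 among the heated) and In4 (BLY5). Of the tags, 8 stood in both arms, while control D6 and heated D3 had no partner. Nothing in the labels says that fragments of 1 genotype label were separate colonies, so p-values measure the spread between these fragments. Tag BLY5 was labelled In4 at 31 days and In2 at 5 days.

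A reef-building coral is an animal that keeps single-celled dinoflagellate algae inside the cells of its inner tissue layer and lives largely on the sugars they pass on. Warm water held for weeks can break this partnership, the algae are lost or expelled, and the coral bleaches. In corals in general, heat is known to induce chaperones and antioxidant enzymes and to lower many genes of growth and metabolism. The files give the coral features as identifiers of assembled transcripts, without gene names, so none of these genes could be looked up. The text therefore describes the response by its size, its spread over genotypes, tags and times, and by 4 features named by identifier.

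Coral counts ran from 4726663 to 6421547 per library, and the counts of a second table, marked by its name as symbiont and here called algal, ran from 175276 to 1141920. Genotype label went with 52.8% of the summed squared distance between the 18 coral profiles and temperature, after genotype, with 8.69%. In bulk tissue, fewer cells of a type and less RNA per cell cannot be told apart.

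The heated libraries of tags B2 and B3 stood apart from the other 16. Between the control and the heated library of 1 tag, the root mean square difference of log2 CPM (counts scaled to a common library size) over the tested features was 0.53 to 0.67 in the 6 tags outside In2, 1.21 in B2 and 1.33 in B3. Heated B2 and B3 differed from the other heated libraries by 1.33 to 1.54 (14 pairs), whereas other heated libraries of different labels differed by 0.92 to 1.11 (15 pairs). Heated B2 and B3 also differed from each other, by 1.14.

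The B2 and B3 controls lay among the other controls but not close to each other. Control libraries of 1 label differed by 0.43 to 0.60 in In1 and In3 (6 pairs) and those of different labels by 0.94 to 1.04 (29 pairs), and the B2 and B3 controls differed by 0.97. The pair under the label In2 was thus as far apart as fragments of different labels. In2 is used as labelled. Counts with B2 and B3 as separate genotypes are given below for the heat comparison and for the difference between habitats. For the differences between labels and between times, such counts were higher but within 1.5 times the main counts.

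A block of features set heated B2 and B3 apart, described here with no test because it was picked for that difference. It held the 234 features with at least 5 CPM in both libraries and at least 4 times the highest other inshore library of 31 days. They made up 13.3% of the coral counts in heated B2 and 13.4% in heated B3, and at most 0.86% in each of the other 16 libraries. Among the 30 libraries that played no part in the picking, they made up 14.4% of the offshore control C4 of 31 days, and at most 1.96% of any other. The filter on low counts left 140 of the 234 among the features tested. What these features are was not tested. Results below include heated B2 and B3 unless stated, and the main counts of calls are also given without them.

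**Figure D1:**
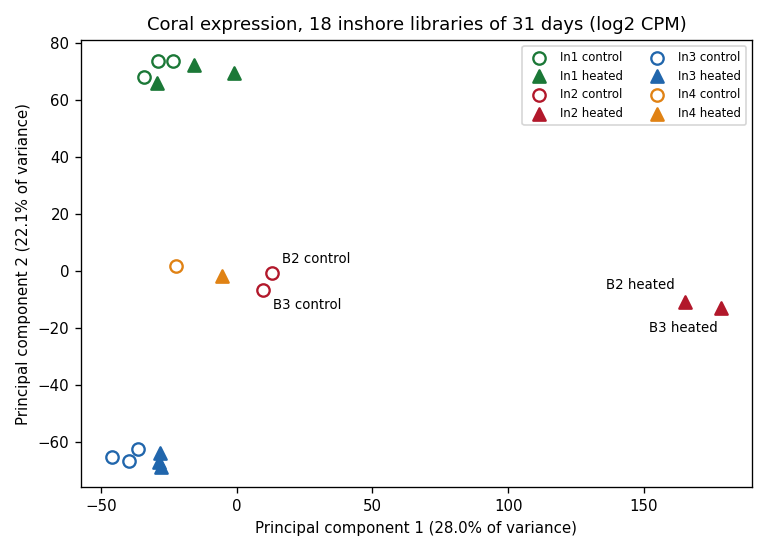
Principal components 1 (28.0% of the variance, horizontal) and 2 (22.1%, vertical) of log2 CPM over the 26541 tested coral features, 1 point a library, open circles for controls, triangles for heated, coloured by genotype label. Controls and heated libraries of In1, In3 and In4 lie with their label, and heated B2 and B3 lie far to the right of the other 16.

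Under heat 684 coral features rose and 727 fell among 26541 tested (edgeR quasi-likelihood test with the genotype label as a term, Benjamini-Hochberg adjusted p under 0.05). That is 5.32% of the features tested, 2.58% higher and 2.74% lower. The changes were mostly modest, with a median log2 change of 0.71 (quartiles 0.50 and 0.99) for the rising features and -0.72 (quartiles -1.02 and -0.50) for the falling ones, beside 0.03 over all tested. At least a 2-fold change was reached by 165 rising features (24.1%) and 190 falling ones (26.1%), and a 4-fold change by 13 and 31.

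Summed over features, the shift was visible in every library. The 684 rising features held 2.63% ± 0.182 of the coral counts in controls and 3.90% ± 0.304 in heated libraries (SD, n = 9 each), with 2.32% to 2.87% against 3.47% to 4.53%. The 727 falling features held 4.95% ± 0.239 in controls and 3.03% ± 0.697 in heated libraries, with 4.66% to 5.34% against 1.61% to 3.70%. Neither pair of ranges overlapped, which the choice of the features by this same comparison favours.

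Among the called features the direction was shared by most tags, which their choice by this same comparison favours. Of the rising features 434 were higher in 8 of 8 tags, 223 in 7 and 27 in fewer, and of the falling ones 470 were lower in 8 of 8, 222 in 7 and 35 in fewer. Over all tested features 922 were higher and 983 lower in 8 of 8 tags, together 7.18%. By genotype label 660 rising and 702 falling features moved 1 way in 4 of 4. For this no count over all tested features was made, so it cannot be judged against them. Complete separation of the arms was rarer. In 67 rising and 83 falling features no heated library overlapped the controls, beside 68 (0.256%) and 86 (0.324%) among all tested, 0.58% together.

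Calls were more frequent and smaller among abundant features. In the lowest quartile of mean level (1.63 to 4.68 CPM) 98 rose and 68 fell, 2.50% of it, with median log2 changes of 1.0 and -1.12. In the highest quartile (32.5 to 13268 CPM) 250 rose and 289 fell, 8.12%, with medians of 0.52 and -0.52. Depth sets how small a change can be called, and its part in this gradient was not tested.

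The number of calls depended on the block used and on single libraries. With the tag in place of the genotype label as block, 73 features rose and 80 fell (0.576%), and 71 and 77 of them were among the calls above. The tag block has more terms, which leaves fewer degrees of freedom. Control D6 and heated D3, without a partner, then add nothing to the heat effect. The part of this in the lower count was not tested. Leaving out control B2 (834 calls), control B3 (858), control BLY5 (653), control D4 (708), control D5 (817), heated BLY5 (679) or heated D3 (646) lowered the count of 1411 by more than 1.5 times. Without In3 it was 1, without In1 280, and with counts summed per genotype label and arm 0 (edgeR, 3890 at an unadjusted p under 0.05).

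Without heated B2 and B3, 528 features rose and 605 fell of 28012 tested (4.04%, edgeR). Of these, 362 rising and 446 falling features were also called with them, which is 57.3% of the calls with and 71.3% of the calls without. No feature was called in opposite directions, and all 1411 had the same sign of log2 change in both fits. Both fits share the other 16 libraries, which favours equal signs, and the share over all tested features was not computed. The 808 calls that were kept had a median absolute log2 change of 0.80 with and 0.67 without heated B2 and B3. The 603 calls that were lost had a median absolute log2 change of 0.61 with and 0.47 without heated B2 and B3.

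At the head of the list stood 4 features, the pair with the smallest p in each direction. Each had an edgeR adjusted p of 0.00053 (n = 9 libraries an arm) and moved the same way in 8 of 8 tags. Levels are CPM scaled by TMM.

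The feature OFAVBQ_DN224964_c3_g2_i6 was at 4.2 CPM in the lowest control library, 5.15 in the median and 8.33 in the highest, and at 12.2, 18.4 and 29.2 CPM in the heated libraries. Every heated library lay above every control. The lowest in both arms was BLY5, and the highest were A5 among the controls and D3 among the heated. The log2 change was 1.81 (SE 0.18), and by genotype label it was 1.28 in In1, 1.87 in In2, 2.14 in In3 and 1.46 in In4.

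The feature OFAVBQ_DN220241_c2_g1_i2 ran from 21.4 to 44.9 CPM in controls, with a median of 33.7, and from 60.1 to 219 in heated libraries, with a median of 92.4. The arms did not overlap, and heated B2 and B3 were the highest libraries. Its log2 change was 1.73 (SE 0.19), with 0.95 in In1, 2.64 in In2, 1.72 in In3 and 2.08 in In4. The labels differed in this change (edgeR adjusted p = 0.0064, n = 9 libraries an arm), and leaving out heated B2 and B3 leaves no heated In2 library, so that In1, In3 and In4 alone are compared (adjusted p = 1). The common log2 change was then 1.45 (SE 0.16).

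Of the falling features, OFAVBQ_DN217924_c8_g5_i1 ran from 8.77 CPM in control B2 to 62.6 in control D4, with a median of 19.7, and from 3.02 to 8.79 in heated libraries, with a median of 4.74. Only heated D5 reached the lowest control, so the arms overlapped by 1 library. The log2 change was -2.16 (SE 0.23), from -1.35 in In4 to -2.55 in In3.

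The feature OFAVBQ_DN201024_c6_g1_i4 fell from 68.1 to 166 CPM in controls, with a median of 108, to 7.75 to 44.8 CPM in heated libraries, with a median of 22.2. The arms did not overlap, and heated B2 was the lowest library. The log2 change was -2.28 (SE 0.25), from -1.60 in In4 to -3.31 in In2. Without heated B2 and B3 all 4 features stayed past the threshold (edgeR adjusted p = 0.0010 each), and with the tag as block their adjusted p ran from 0.016 to 0.029. With counts summed per genotype label none of the 4 was called (edgeR adjusted p = 0.30 each), and without In3 OFAVBQ_DN217924_c8_g5_i1 alone was (0.080 for the other 3).

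**Figure D2:**
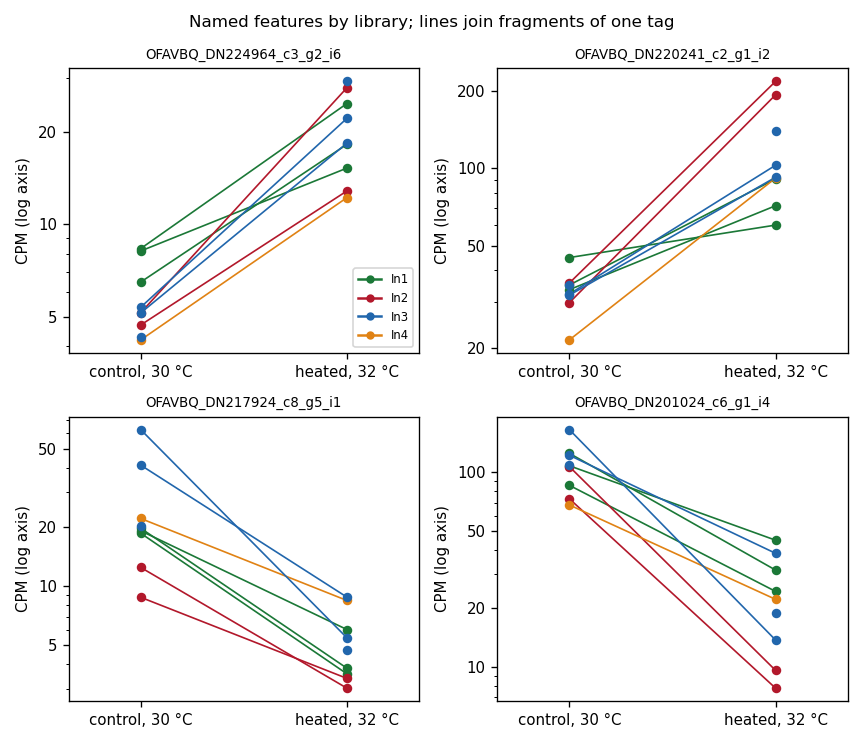
CPM scaled by TMM (vertical, log axis) of the 4 named features in the control and heated libraries of 31 days, 1 point a library, coloured by genotype label, with a line joining the libraries of 1 tag. The lines of both upper features rise and those of both lower features fall in all 8 tags.

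Beyond these 4, the size of the response differed between tags. The median log2 change of the 684 rising features was 0.39 in A2, 0.39 in A4 and 0.47 in A5, the tags of In1. It was 0.60 in D4 and 0.56 in D5 of In3, 0.67 in BLY5 of In4, and 1.01 in B2 and 1.10 in B3 of In2. The 727 falling features gave the same outline, from -0.38 in A2 to -1.14 in B3. The median over all tested features was -0.05 to 0.02 in each tag, which the TMM scaling centres. Its factors were 0.75 for heated B2 and 0.68 for heated B3, against 0.98 to 1.09 in the other 16 libraries, and their part in the larger changes of these tags was not tested. The In1 tags were smallest in both directions, D5 lying close to A5 among the falling features, and the In2 tags were largest.

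To read the response in fragments that had no part in choosing the features, each genotype label was left out of the edgeR fit and the calls of the others were read in it. For In1, 123 features rose and 157 fell without it. Only those that also passed the low-count filter in the fit of all labels could be read. Of these, 120 of 121 were higher in In1 too and 147 of 155 lower, against 50.3% higher and 49.7% lower among all features tested. Their median log2 change was 0.48 and -0.54 in In1, and 1.13 and -1.19 in the labels that chose them.

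For In4, a single tag, 292 of 314 rising features (93.0%) and 318 of 335 falling ones (94.9%) moved the same way, against 50.6% higher and 48.8% lower among all tested, with medians of 0.65 and -0.68. For In2 the shares were lower, 493 of 648 (76.1%) and 564 of 683 (82.6%), against 47.9% higher and 52.1% lower among all tested. Their medians were 0.62 and -0.91 in In2, beside 0.63 and -0.62 in the other labels. Without In3 a single feature was called, so In3 could not be read this way. Choice of the features in the other labels inflates their own medians, so the medians in the left-out label and in the others are not on equal terms.

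**Figure D3:**
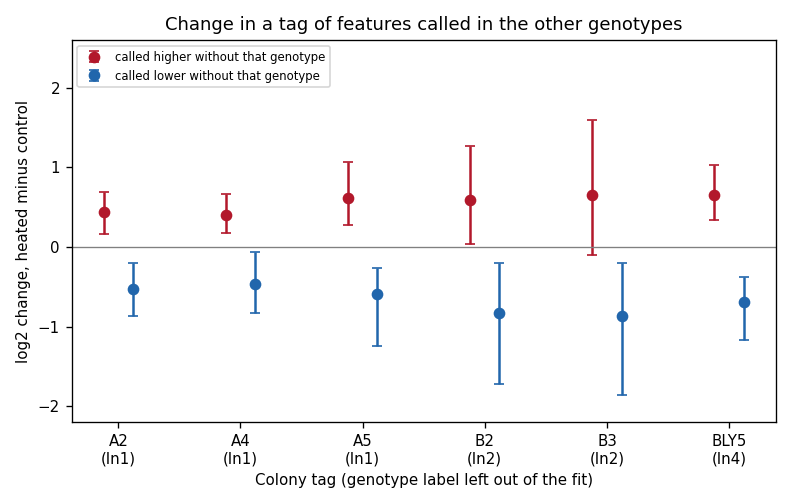
Log2 change, heated minus control, within 1 tag (vertical) of features called higher (red) or lower (blue) in an edgeR fit without that tag's genotype label; points are medians and bars run from the lower to the upper quartile. The quartiles stay on 1 side of 0 in A2, A4, A5, B2 and BLY5, and those of the features called higher reach across 0 in B3.

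In1 and In3, the labels with 3 fragments an arm, were also fitted without the other labels, a choice made after the data were seen. Among 28104 features, 105 rose and 96 fell in In3 (0.715%) and 0 changed in In1 (edgeR), with 4267 and 2118 at an unadjusted p under 0.05. In a fit of all 18 libraries 35 rose and 34 fell in In3 (0.26%), and 1 rose and 0 fell in In1 (1410 at an unadjusted p under 0.05). The difference between In3 and In1 was called for 0 features in either fit, with 1112 and 638 at an unadjusted p under 0.05. Of the In3 calls of the fit without the other labels, 101 of 105 rising and 95 of 96 falling features had the same sign in In1, where all tested features were 52.6% higher and 46.9% lower. Their median log2 changes in In1 were 0.47 and -0.69, and 1.07 and -1.28 in In3. Choice of these features in In3 inflates the In3 medians, so the labels are not on equal terms here.

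A test of whether the 4 genotype labels responded alike called 3815 of 26541 features (14.4%, edgeR test of the 3 interaction terms). In2 was the label farthest from the others in 3712 of them, with 2055 higher and 1657 lower there, while In1 was farthest in 15, In3 in 40 and In4 in 48. Over the 3815 the median absolute log2 change was 1.68 in In2, against 0.16 in In1, 0.19 in In3 and 0.28 in In4. Over all tested features it was 0.57 in In2, and In2 was farthest in 56.2%.

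Heated B2 and B3 are the only heated In2 libraries, so without them the response of In2 cannot be estimated and the test compares In1, In3 and In4. Among these labels 0 features were called of 28012 (edgeR, 832 at an unadjusted p under 0.05), and 0 of 27271 with the In2 controls left out as well (1014 at an unadjusted p under 0.05). Of the 1411 features called in the heat comparison, 242 (17.2%) were also among the 3815.

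The inshore response at 31 days and 32 °C was set beside that at 5 days and 33 °C, which had its own 9 control and 9 heated libraries. Temperature, time and the set of tags changed together, so their parts cannot be told apart. Tags A2, A5, B2, B3 and D4 stood at 31 days only, and A3, A6, B4 and BLY6 at 5 days only. At 5 days 1727 features rose and 1760 fell of 25994 (13.4%, edgeR). Of the 684 features rising at 31 days, 662 were tested at 5 days, 576 (87.0%) had the same sign, and 235 were called that way and 1 the other way. Of the 727 falling ones, 711 were tested, 618 (86.9%) had the same sign, and 287 were called that way and 11 the other way. Among all features tested at 5 days 51.8% were higher and 48.2% lower.

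The same features changed less at 5 days, with a median log2 change of 0.31 against 0.69 at 31 days for those rising and -0.34 against -0.71 for those falling. Having been called at 31 days, they favour that time. The 522 features called at both times in the same direction were 37.0% of the calls at 31 days and 15.0% of those at 5 days.

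Of the named features, OFAVBQ_DN224964_c3_g2_i6 had risen at 5 days too (log2 change 2.16, SE 0.18, edgeR adjusted p = 2.3e-06). OFAVBQ_DN220241_c2_g1_i2 had a log2 change of 0.33 at 5 days (adjusted p = 0.29) and was higher at 31 days by 1.4 in the test of the difference (edgeR adjusted p = 0.014, and a difference of 1.13 with adjusted p = 0.042 without heated B2 and B3). Both falling features had also fallen at 5 days, OFAVBQ_DN217924_c8_g5_i1 with a log2 change of -1.17 (adjusted p = 0.0046) and OFAVBQ_DN201024_c6_g1_i4 with -1.44 (adjusted p = 3.4e-05), and for neither did the times differ past the threshold (adjusted p = 0.17 and 0.19).

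The difference between the times was called for 467 of 31012 features (1.51%, edgeR), with 242 higher and 225 lower at 31 days. The 242 were mainly features low under heat at 5 days and near the control level at 31 days. Their median log2 change was -1.80 at 5 days and -0.14 at 31 days, 192 were called lower at 5 days, and 21 were called higher at 31 days. The 225 had a median of 0.59 at 5 days and -0.45 at 31 days. Of them 155 were called higher at 5 days, 52 were called lower at 31 days, and 184 had opposite signs at both times. Without heated B2 and B3, 92 and 128 features were called, 191 of them also called with the pair and in the same direction.

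**Figure D4:**
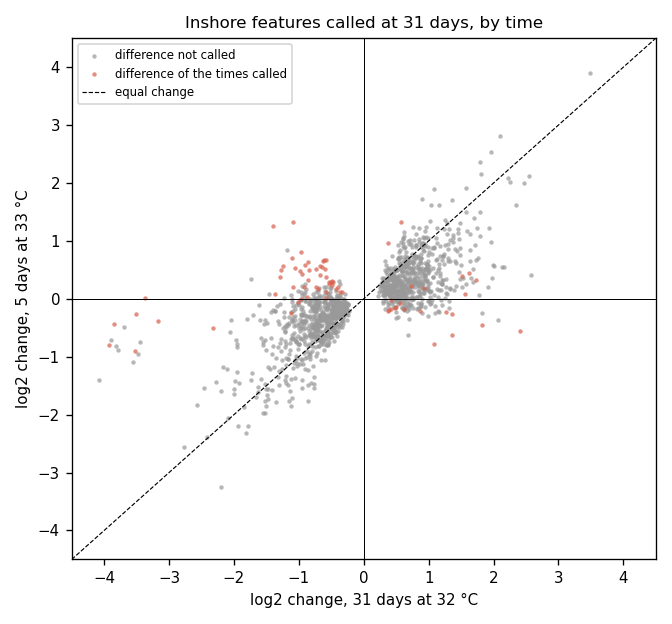
Log2 change under heat at 31 days (horizontal) and at 5 days (vertical) of the 1373 features called at 31 days and tested at both times, 1 point a feature; red points are the 74 whose difference between the times was called, and the dashed line marks equal change. Most points lie in the quadrants of equal sign and nearer to the horizontal axis than the dashed line, and 57 of the 74 red points have opposite signs.

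Offshore, with 3 fragments an arm, the heat effect did not differ from the inshore one past the threshold in any of 35219 features (0%, edgeR test of the difference in a fit of the 24 libraries of 31 days). Unadjusted p lay under 0.05 in 4808 features, and DESeq2 called 42. Of the features that rose inshore 421 of 684 (61.5%) were higher offshore and of those that fell 457 of 727 (62.9%) were lower, with median log2 changes of 0.15 and -0.15. Among all tested features 50.6% were higher and 49.4% lower offshore.

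Those shares moved with 1 offshore library, the control C4 that held 14.4% of its counts in the 234 features described above. Without it 535 of the features that rose inshore (78.2%) and 609 of those that fell (83.8%) had the same sign offshore, with medians of 0.31 and -0.37, beside 47.9% higher and 52.1% lower among all tested. In the fit that includes C4, the 4 named features had offshore log2 changes of 1.04, 0.53, -0.61 and -0.71, in the order described. Each had the inshore sign and was smaller, but for none did the habitats differ past the threshold (edgeR adjusted p from 0.32 to 0.39).

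Algal RNA was lower in the heated fragments. Algal counts were 12.2% of all counts in the lowest control library, 14.6% in the median and 19.5% in the highest, and 2.67%, 8.01% and 12.5% in the heated libraries. Relative to coral counts, algal counts on the log2 scale were lower in 8 of 8 tags, by a mean change of -1.29 (SD 1.15, n = 8, exact two-sided sign-flip permutation test, p = 0.0078, the smallest this design allows). Without tags B2 and B3 it was -1.06 (n = 6, exact p = 0.031), and over the 4 genotype labels -1.65 (n = 4, exact p = 0.13, the smallest 4 values allow).

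The tags differed widely in this loss. In A4 the share was 12.5% in both arms, and the log2 ratio of algal over coral counts changed by -0.01. It changed by -0.21 in A5, -0.55 in A2, -0.95 in D5, -1.15 in B2 and -1.52 in D4. In B3 the ratio was 6.92-fold lower, from 18% to 3.06% of all counts, and in BLY5 it was 8.80-fold lower, from 19.5% to 2.67%. In1 thus held the 3 smallest changes, and it also had the smallest median change in coral features described above. Among the other tags the order was not the same throughout. BLY5, with the largest algal change, had a median log2 change of 0.67 in the rising coral features. B2, with an algal change of -1.15, had 1.01, while B3 had a large change in both. Whether the change in algae and that in coral features are related was not tested, since tags of 1 label are not independent.

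**Figure D5:**
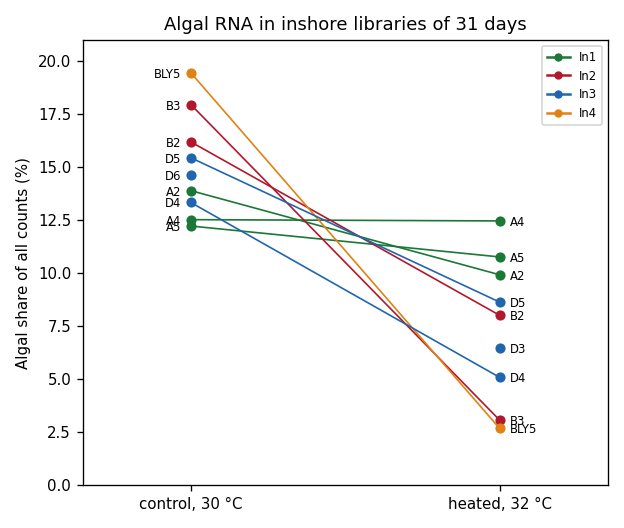
Algal counts as a share of all counts (vertical, percent) in control and heated libraries of 31 days, 1 point a library labelled by its tag and coloured by genotype label, with lines joining the libraries of 1 tag. The lines of A2 and A5 fall a little and that of A4 is nearly level, while BLY5 and B3 end near 3%; D6 and D3 have no partner.

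Algal features fell into 2 sets, defined after the data were seen from the 24 control libraries of both times and habitats. Among 37431 algal features with a mean of at least 5 CPM, 15446 followed principal component 1 (89.8% of the variance) toward the In1 controls and 17762 followed it the other way, each with a correlation of at least 0.9 in size. The files do not name the algae, and the sets are called set 1 and set 2.

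Set 1 stood between 91.4 and 117 counts per 1000 coral counts in all 6 In1 libraries, heated or not. Set 2 was at 33.8 in control A2, 2.91 in A4 and 16.1 in A5, and at 0.352, 0.320 and 0.402 in the heated fragments of these tags, so it was lower in the 3 of them, A4 included. In D4 set 2 went from 126 to 2.09 and set 1 from 0.263 to 38.2. In BLY5 and B3 set 2 was the more abundant in both arms, 199 and 178 in controls and 17.9 and 21.3 under heat. In B2 set 1 was the more abundant in both arms, 163 in the control and 71.8 under heat. Heated fragments of In1 and In3 and heated B2 thus held mainly set 1, and those of BLY5 and B3 mainly set 2.

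The largest coral falls moved with set 2. Of the 14 falls of at least 8-fold, 13 had a Spearman correlation of 0.9 or more with set 2 counts per coral count across the 24 libraries of 5 days, which had no part in choosing them. These libraries span both habitats and arms, so the correlation is a description. Over all tested features the median correlation was -0.07 with a 5th to 95th percentile of -0.54 to 0.43, and 17 features reached 0.9. Summed, the 13 features stood at 2.10 to 645 CPM in inshore controls of 31 days, with a median of 270, and at 1.32 to 98.2 in heated libraries, with a median of 6.11. Low values were found in both arms. Control B2, at 2.10, control A4, at 9.26, and control A5, at 53.4, lay within the range of the heated libraries, and these controls were also the lowest in set 2. Whether these features come from coral or algae was not tested. Of the 727 falling features 713 lay under this correlation, with a largest log2 fall of -3.55, and none of the 684 rising features reached it.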

How the data were processed

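Per the labels' protocols, total RNA of coral tissue went into a stranded mRNA kit. The authors deposited estimated counts per assembled transcript, in 1 table of 87440 coral features and 1 of 93246 symbiont features, and both tables are named for kallisto. Per the submitters' processing notes, Trimmomatic 0.36 and RSEM were used, with no role given, and the reference is not given in the sources used here. The estimated counts were not whole in 23.8% of coral and 2.79% of algal values of the 18 libraries and were rounded. Each coral feature was the sole transcript of its assembled gene, so a planned test per assembled gene was the same test.

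The heat comparison used edgeR 4.0.16 (R 4.3.3), with filterByExpr (minimum count 10), TMM, genotype label plus arm, a quasi-likelihood F test and Benjamini-Hochberg adjustment at 0.05. Log2 CPM used a prior count of 2. SE is the log2 change divided by the square root of F. Scripts were tested on simulated counts with known changes, independent libraries and a fixed dispersion for all features, which is simpler than these data. No minimum recovery was required there for the test of differences between labels. Alternatives were DESeq2 1.42.0, other scaling, no filter, tags as block, and leaving out libraries or labels. The members and lists were chosen with earlier results of these data known. The rule for named features was the 2 smallest p in each direction.

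Counting error on an algal share was at most 0.0320 percentage points (95% Wilson), and it covers counting error only, since reads carried no molecular identifiers. All 72 pairs of libraries within an arm differed by more than sampling noise, with a chi-square of at least 3.74 per degree of freedom. By correlation, colony tags paired the arms, though little more closely than the label alone. Deviations from the arm mean correlated at 0.40 to 0.72 between both libraries of a tag (8 tags). The median was 0.54, against 0.50 for other tags of the label and -0.16 for other labels. In 4 of 8 tags a control correlated best with its own heated library. B2 and B3 did not correlate across tags (-0.01 and 0.03). By root mean square difference of log2 CPM between the arms, tags were no closer than labels. The median was 0.62 within a tag outside In2 (6 pairs), and 0.60 between different tags of In1 or of In3 (13 pairs).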

Additional observations from a re-analysis of the deposited data

Results flagged for a closer look

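The heat response differed between the 4 genotype labels in 3815 features by the edgeR test of the interaction terms, and in 0 without heated B2 and B3, where In1, In3 and In4 alone are compared. The inshore response differed between 31 days at 32 °C and 5 days at 33 °C in 467 features by the edgeR test of the difference. Among 17 groups of values examined, none held a single value far from the rest by Dixon's criterion, which chance meets in about 1 group in 20. The criterion weighs the gap between the most extreme value and the next. It therefore could not flag a pair lying together, such as heated B2 and B3 in their TMM factors (0.75 and 0.68).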

How the results depend on the processing

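The 1411 calls of the heat comparison became 816 with no filter on low counts, 2855 with DESeq2, 836 in a fit of all 24 libraries of 31 days, and 477 with no genotype term. They became 280 without In1, 1 without In3, 650 without In4, and 0 (3890 at an unadjusted p under 0.05) with edgeR on counts summed per genotype. With tags as replicate block the count was 153, and 372 with that block and without heated B2 and B3. Leaving out 1 library at a time gave 646 to 1602. RLE scaling (1416), library totals (956), no In2 (1352), and B2 and B3 as separate genotypes (1829, added after seeing the data) stayed within 1.5 times. The median of all features moved by less than 0.1 (log2) under each scaling.

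The 3815 calls of the difference between labels became 0 without heated B2 and B3 and 0 without In2 (In1, In3 and In4 alone compared in both), ran from 3212 to 3941 with 1 library of In1 or In3 left out, and stayed within 1.5 times otherwise. The 467 calls between the times became 295 with no filter, 220 without heated B2 and B3, 1125 with DESeq2, and 277 with the replicate block. Leaving out the label In2, which covered B2 and B3 at 31 days but BLY5 and BLY6 at 5 days, gave 169. The 0 calls between habitats became 14 with no filter, 1 without heated B2 and B3, 1 without In2, 42 with DESeq2, and 9 with B2 and B3 separate, and stayed 0 with the replicate block. The algal log2 ratio of -1.29 became -1.65 per genotype label (exact p = 0.13), and ran from -1.47 to -1.03 with 1 tag left out. The 4 named features kept their direction in 33 alternatives each. Summing counts per genotype ended their calls (edgeR adjusted p = 0.30) and so did leaving out In3, except for OFAVBQ_DN217924_c8_g5_i1 (0.080 for the others). The cause of these changes was not tested, though fewer samples enter where libraries or labels are left out. A change in a feature of a few CPM must be larger to be called, and In4 rests on 1 library an arm.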
